A study of Caenorhabditis elegans with 4 samples.

Results

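The combined list of MAB-5 binding held 399 regions on the X chromosome, out of 2261 regions on all chromosomes. They were taken as all entries of that list whose chromosome name is X, without regard to their q value or width. The other 1862 regions, on the 5 autosomes, served as background. In the lists of single ChIP samples, X held 195 of 976 entries in replicate 1 and 475 of 2652 entries in replicate 2. Many of these entries overlapped, and joining them left 146 of 758 distinct regions in replicate 1 and 385 of 2187 in replicate 2.

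MAB-5 belongs to the Hox family of homeodomain transcription factors and sets the identity of posterior cells in *Caenorhabditis elegans* and directs the posterior migration of neuroblasts. Hox proteins bind short AT-rich sites, often together with partner homeodomain proteins such as the PBX-like CEH-20. The X chromosome of this worm differs from the autosomes in known ways. In hermaphrodites it is covered by the dosage compensation complex, it carries few genes expressed in the germline, and its genes are spread more evenly along its length than those of an autosome.

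The series held 2 ChIP samples and 2 samples of input chromatin, which serve as the control for the ChIP. All came from hermaphrodites of strain OP27 at the second larval stage (L2), grown at 20 °C and fixed with 2% formaldehyde. All 4 samples carried the mutation unc-119(ed3) and the bombarded transgene wgIs27. That transgene holds mab-5 with the tags TY1, EGFP and FLAG, together with a copy of unc-119. Chromatin was precipitated through the GFP tag. The labels place the fusion protein where mab-5 is normally active, and chromatin was taken from whole larvae, so that binding in the cells with MAB-5 was read against the chromatin of all cells. No strain without the tag was among the samples, and input chromatin was not analysed here as a list of regions.

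Each region carried a single measurement, the q value given by the authors' peak caller. Strength means −log10 of that q value, so that a difference of 1 is a factor of 10 in q. It ranks regions by significance and is no measure of occupancy. Depth is unknown, because the lists gave no read counts. The labels did not say whether the replicates came from separate cultures. Intervals are 95% intervals that treat regions as independent draws, which neighbouring regions of 1 chromatin sample are not. Coordinates are those of build WS180, for which no sequence or gene annotation was used here, so that regions are named by position without genes or motifs.

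X held 17.6% of the combined regions (exact interval 16.1 to 19.3%), a count between those of chromosome V (385) and chromosome III (402). Chromosome lengths were not taken into account, so these counts and shares do not compare density between chromosomes. The X regions covered 227 kb in all. They ran from 293242 to 17628679, a span of 17.3 Mb, at a mean of 23.0 regions per Mb. In the replicate 1 list the share of X was 19.3% (16.5 to 22.3%), and in the replicate 2 list it was 17.6% (16.03 to 19.3%). The intervals of the 3 lists overlapped, but the lists share many regions and are not independent.

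A group of 9 X regions stood far above the rest in strength. The strongest was chrX:11093733-11094612, 880 bp wide, with a q value of 6.38e-95 in the combined list. Each of the 9 had 2 overlapping entries in each replicate list. Replicate q values given for them are those of the stronger entry. At this site these were 1.96e-45 in replicate 1 and 6.38e-95 in replicate 2, with second entries of 2.89e-25 and 4.27e-36. The stronger replicate 2 entry here was identical to the combined entry. At most of the 9 its q value equalled the combined one, so the 2 lists were not independent. The next strongest was chrX:14525395-14526294, with q values of 3.45e-34 in replicate 1 and 2.55e-93 in replicate 2. It ranked 2 on X in the combined list and 6 in replicate 1, so that the order within the group differed between the lists. The third, chrX:13700413-13701105, was the narrowest of the 9 at 693 bp, and its q values were 9.69e-42 in replicate 1 and 8.49e-89 in replicate 2.

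The region chrX:8035747-8036880 had q values of 1.49e-36 in replicate 1 and 6.60e-87 in replicate 2. Those of chrX:4208518-4209674 were 1.68e-34 in replicate 1 and 7.52e-83 in replicate 2. Both were over 1100 bp wide, at 1134 and 1157 bp. The group went on with chrX:2996456-2997585, with 2.58e-31 in replicate 1 and 1.30e-82 in replicate 2, and with chrX:6296081-6297019, with 1.71e-37 in replicate 1 and 8.10e-75 in replicate 2. Its widest member, chrX:11605344-11606627, spanned 1284 bp and had q values of 8.99e-29 in replicate 1 and 1.02e-65 in replicate 2. The last, chrX:9465340-9466155, had 3.82e-27 in replicate 1 and 4.17e-59 in replicate 2.

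Between this last region and the one ranked 10, strength in the combined list dropped by 23.0, with 57.5 at rank 9 and 34.5 at rank 10. No other step among the 20 strongest exceeded 9.10. The same 9 regions were the 9 strongest on X in the replicate 1 list, with strengths of 26.4 to 44.7 and a median of 33.8. The 11 regions ranked 10 to 20 in the combined list had strengths of 9.90 to 18.9 in replicate 1, with a median of 14.2, so that the 2 sets did not overlap there either. These 9 made up 2.26% of the X list, and the 10 autosomal regions at or above a strength of 57.5 made up 0.537% of the autosomal list. Over all chromosomes 0.840% of regions reached that strength. The range from 34.5 to 57.5 was empty on X and held 30 autosomal regions. This limit was drawn through the X values after they had been seen, so the shares are a description only.

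**Figure D1:**
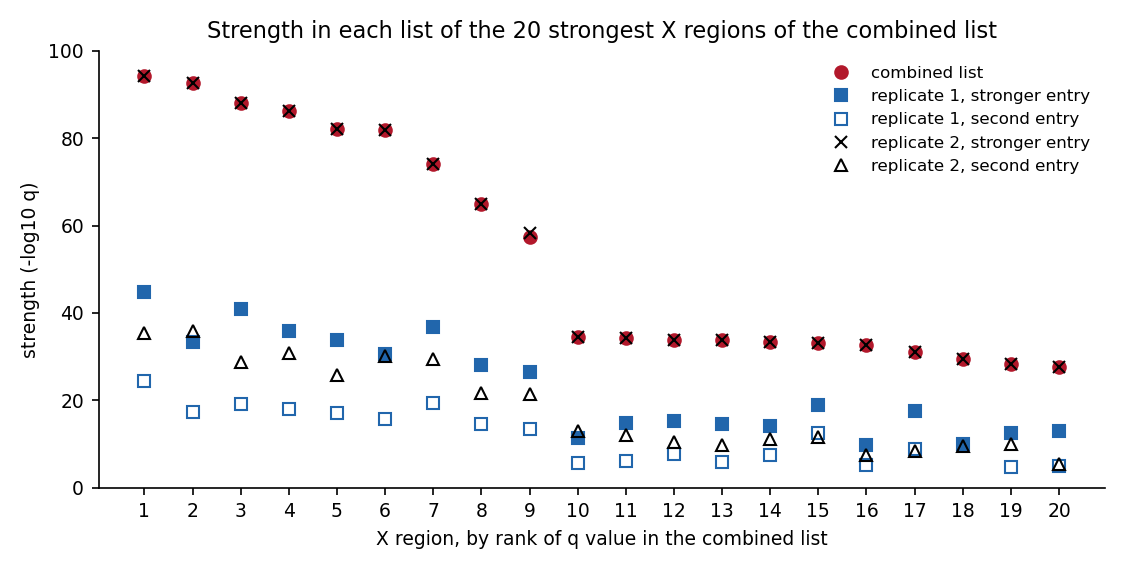
Strength (−log10 q) of the 20 strongest X regions of the combined list, by rank, in the combined list and in the stronger and second entries of each replicate list. The combined strength drops by 23.0 between ranks 9 and 10, and the stronger replicate 1 entries of ranks 1 to 9 lie at 26.4 or above, those of ranks 10 to 20 at 18.9 or below.

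The regions ranked 10 to 20 had q values between 3.42e-35 and 2.48e-28 in the combined list. Ranks 10 to 15 were nearly equal in strength, from 34.5 to 33.1, and lay at chrX:11937071-11937770, chrX:806487-806938, chrX:16681782-16682289, chrX:10568261-10569136, chrX:16056146-16056762 and chrX:17479385-17480440. The last of these was the strongest of the 11 in replicate 1, with a q value of 1.23e-19. The remaining 5 lay at chrX:16929303-16931938, chrX:13144879-13145673, chrX:12362789-12363499, chrX:12689850-12690744 and chrX:11030890-11032050. Weakest of the 11 in replicate 1 was the region at 16929303, where a 2636 bp stretch of the combined list met a replicate 1 entry of 669 bp with a q value of 1.26e-10. All 20 regions were found in both replicate lists, as were 90.02% of the 461 autosomal regions with a strength of 10.45 or more. The 20 strongest X regions of replicate 1 included 18 of the 20. Of the 20, 15 lay in the right 50% of the X span and 5 in the left 50%, whereas all X regions were split almost evenly, with 198 on the right and 201 on the left. The right side held 5 of the 9 strongest, 29 of the 50 strongest and 50 of the 100 strongest, so the count for the 20 strongest was not kept at other ranks. That division was made after the values were seen.

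Regions on X were wider than regions on the autosomes. Their median width was 478 bp (interval 448 to 510 bp), against 411.5 bp (400 to 421 bp) on the autosomes, a difference of 66.5 bp (35.03 to 101 bp). X had the widest median of the 6 chromosomes, and the autosomal medians ran from 402 to 444 bp. The highest was that of chromosome I, whose interval of 414 to 473 bp overlapped the interval of X. The difference was larger in the list of replicate 1. There the X median was 547.5 bp and the autosomal one 407.5 bp, 140 bp apart (76.7 to 183 bp), with single autosomes between 395 and 431 bp. In replicate 2 the medians were 485 bp on X and 414 bp on the autosomes, 71 bp apart (41.3 to 101 bp). In all 3 lists the X median thus lay above that of every autosome. The lists are not independent, since 84.7% of combined X regions were identical to a replicate 2 entry.

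The difference in width was present from the 10th to the 90th percentile and, counted in bp, was larger at the upper of these. The 10th percentile was 311 bp on X and 289 bp on the autosomes, and the 90th was 927 bp on X and 836 bp on the autosomes. Regions under 300 bp made up 7.27% of the X list and 13.4% of the autosomal list, a difference of -6.10 percentage points (-8.81 to -2.79). Widths of 500 bp or more but under 1000 bp accounted for 37.8% of X regions and 27.01% of autosomal regions, 10.8 points apart (5.77 to 16.1). At 1000 bp or more there were 32 X regions, or 8.02%, and 114 autosomal regions, or 6.12%, a difference of 1.90 points whose interval of -0.672 to 5.14 spans 0. Over all chromosomes 6.46% of regions were that wide, and chromosome II had a higher share than X, at 8.65%.

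**Figure D2:**
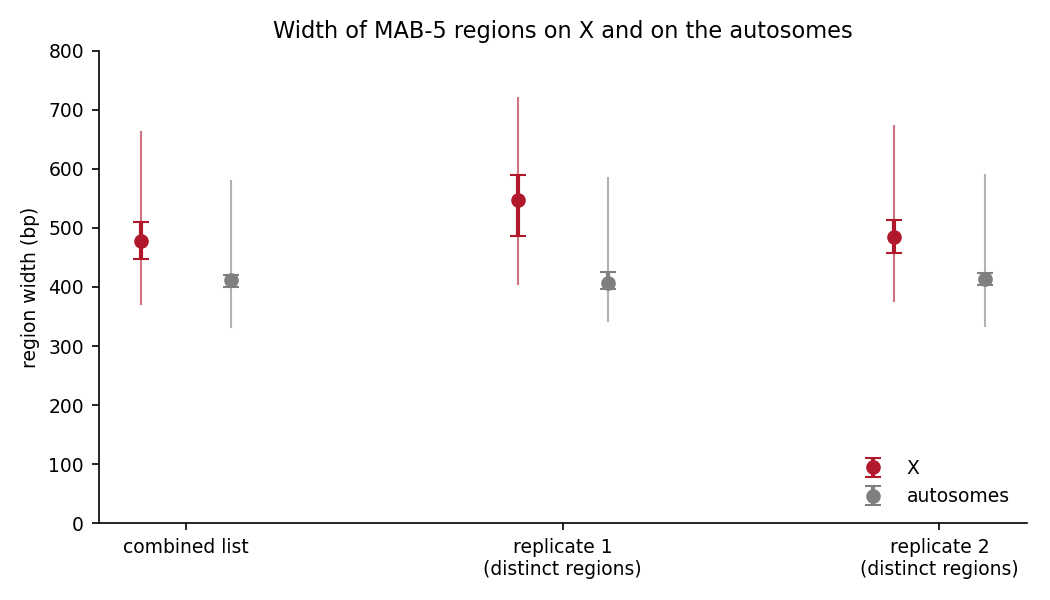
Width in bp of MAB-5 regions on X and on the autosomes in the combined list and in the distinct regions of each replicate list. Points are medians, thick capped bars their 95% intervals and thin lines the interquartile range. The X medians of 478, 547.5 and 485 bp lie above the autosomal medians of 411.5, 407.5 and 414 bp.

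In strength X lay among the autosomes. The median strength was 6.50 on X (5.92 to 6.90) and 6.48 on the autosomes (6.16 to 6.66), a difference of 0.0188 (-0.591 to 0.527). Single autosomes ran from 6.10 on chromosome IV to 6.70 on chromosome III, a range that includes the X median. Width and strength rose together across regions, with a Spearman rho of 0.451 over the 399 X regions and 0.403 over the 1862 autosomal ones. These correlations describe regions of the same libraries, which are not independent.

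The width difference was therefore also read at like strength, a step added after the lists had been seen, once all combined regions had been divided by strength into 4 groups of nearly equal size. In the weakest group the medians were 389 bp on X and 346.5 bp on the autosomes, and in the next 417 and 372.5 bp. The third group had medians of 461 bp on X and 418 bp on the autosomes, with an interval of the difference of -12.2 to 89.8 bp that spans 0. In the strongest group the medians were 643 bp on X and 528 bp on the autosomes, a difference of 115 bp (49.9 to 206 bp). X was thus wider by 42.5 to 44.5 bp in the first 3 groups and by more in the strongest. In the third group the highest autosomal median, 463 bp, exceeded that of X.

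The strongest X regions were wide as well. Of the 9 strongest, the narrowest spanned 693 bp, and the median was 939 bp. The 5 widest X regions were chrX:6742860-6745735 (2876 bp), chrX:16929303-16931938 (2636 bp), chrX:6739176-6741795 (2620 bp), chrX:12691761-12693876 (2116 bp) and chrX:4144879-4146865 (1987 bp). Their strengths in the combined list were 11.5, 32.8, 9.37, 26.7 and 8.82, so the widest were not the strongest. In replicate 1 the strongest entries inside the first 4 were narrower, at 748, 669, 845 and 620 bp, and the last had no entry there. The widest and the third widest were close neighbours, and the nearest other region to the widest lay 283 bp away.

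Of the 399 X regions, 145 (36.3%, 31.6 to 41.3%) were overlapped by an entry of both replicate lists, against 32.9% of all combined regions and 598 of 1862 autosomal regions (32.1%, 29.998 to 34.3%). The difference between X and the autosomes was 4.22 percentage points (-0.827 to 9.48), an interval that spans 0. Chromosome III had nearly the same share as X, at 36.1%, and chromosome I the lowest, at 23.03%. Compared with the 4 other autosomes, a choice made after that low share was seen, X was 2.36 points higher (-2.80 to 7.72). A further 239 X regions (59.9%) were overlapped by replicate 2 only, against 63.5% of all combined regions. Replicate 1 only overlapped 0 X regions, against 0.0885% of all combined regions. Neither list held 15 X regions (3.76%, against 3.54% of all regions), whose q values lay between 0.000109 and 0.000189, near the end of the combined list. Judged by replicate 2 alone, 96.2% of X regions were found, a difference from the autosomes of -0.161 points (-2.63 to 1.59).

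Support followed strength on X as on the autosomes. In the weakest of the 4 strength groups, 3 of 104 X regions were in both lists (2.88%), against 1.30% on the autosomes. The shares were 8.42% on X and 5.96% on the autosomes in the next group, and 37.1% on X and 31.8% on the autosomes in the third. In the strongest group 98 of 103 X regions (95.1%) were in both lists, against 90.02% on the autosomes. Against the pooled autosomes X was the higher in all 4 groups, by 1.59 to 5.34 points, and each of the 4 intervals of the difference spans 0. In the first 3 groups a single autosome exceeded X, with highest autosomal shares of 4.12, 12.1 and 41.7%, and in the strongest group the highest was 94.9%. Regions found in both lists had a median strength of 12.9 on X and 13.6 on the autosomes, and median widths of 605 bp on X and 496.5 bp on the autosomes.

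**Figure D3:**
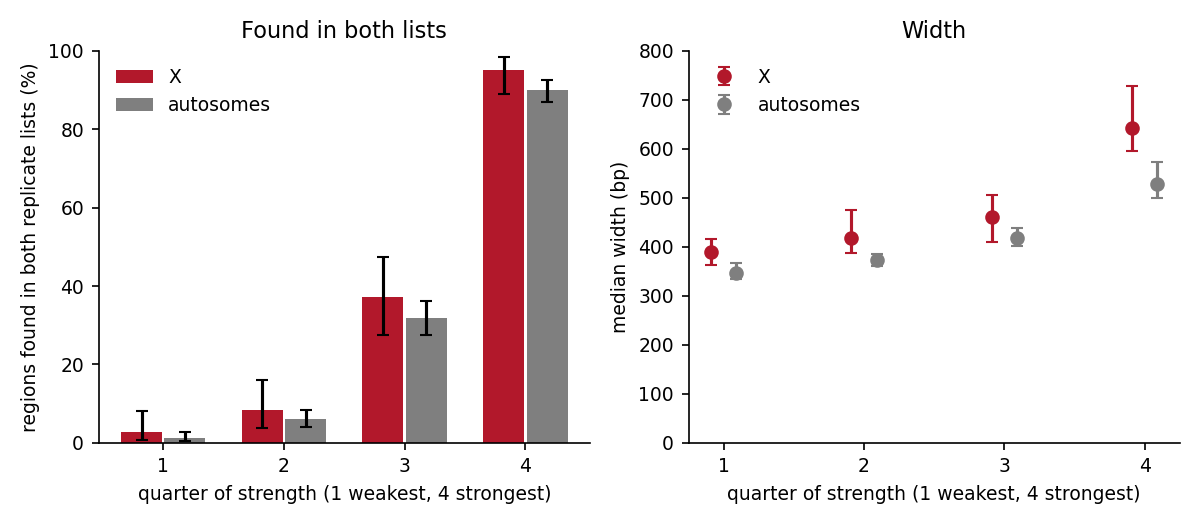
Share of combined regions found in both replicate lists (left, in %, bars from 0 with exact 95% intervals) and median width in bp with its 95% interval (right), for X and the autosomes in 4 groups of strength. The X share reaches 95.1% in the strongest group, against 90.02% on the autosomes, and the median width there is 643 bp on X and 528 bp on the autosomes.

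Each of the 50 strongest X regions was found in both lists. The count was 97 among the first 100 and 134 among the first 200. In the strongest 50% of the combined list, X exceeded the autosomes in the share found in both lists by 6.35 points. The interval of that difference, -1.10 to 13.3, spans 0. Those first 100 all fell in the strongest of the 4 strength groups. There 90.02% of autosomal regions were in both lists too, with up to 94.9% on a single autosome. The first exception, at rank 80, was chrX:6688960-6689678, with a q value of 5.56e-13 in replicate 2 and no entry in replicate 1. At the other end, the weakest X region in both lists was chrX:16997267-16997673 at rank 371. It had q values of 6.56e-06 in replicate 1 and 0.000112 in replicate 2 and was thus the more significant in replicate 1.

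Seen from the replicate lists, all 146 distinct X regions of replicate 1 were found in replicate 2, against 99.2% over all chromosomes and 606 of 612 on the autosomes. All 146 were also in the combined list. In the other direction, 145 of 385 distinct X regions of replicate 2 (37.7%, 32.8 to 42.7%) were found in replicate 1, against 34.0% over all chromosomes and 33.2% on the autosomes. A single X region of a replicate list was in neither other list, at chrX:8763005-8763274 in replicate 2, with a q value of 0.000117. The replicate 2 and combined lists were not independent. In coordinates and q value, 338 of the 399 X regions (84.7%) were identical to a replicate 2 entry, as were 84.4% of autosomal regions. No X region had the coordinates of a replicate 1 entry.

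Where an X region could be paired between the replicate lists, replicate 1 gave the lower strength. There were 144 such pairs of distinct regions, in which each overlapped only the other. Median strengths were 6.56 in replicate 1 against 12.8 in replicate 2. The median of the differences, replicate 1 minus replicate 2, was -6.36 (-7.12 to -5.58). In 142 of the 144 pairs replicate 1 was lower. The 2 exceptions were both weak. One was the region at 16997267 named above, and the other lay at chrX:11797984-11798375, with strengths of 4.63 in replicate 1 and 4.05 in replicate 2. On the autosomes the median difference was -6.93 over 592 pairs, and 581 were lower in replicate 1. Between single entries as deposited, the median difference on X was -3.31. It rests on 59 pairs, since entries that overlap more than 1 entry of the other list drop out, so it covers other regions than the 144 pairs. Since replicate 2 q values mostly equalled those of the combined list, these differences compare lists and not amounts of binding.

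Strengths in the 2 lists rose together over the 144 X pairs, with a Pearson's r of 0.968 and a Spearman's rho of 0.834, and r was 0.962 without the 2 pairs farthest from the median of replicate 2. Because the 9 strongest X regions stand apart in both lists, leaving out 2 pairs cannot show how far r rests on them. These values describe regions that share both libraries. The centres of paired regions lay close together. The median distance on X was 30.0 bp, and 124 of the 144 pairs (86.1%) were within 100 bp. On the autosomes the median distance was 22.0 bp, and 89.4% were within 100 bp. The largest distance on X was 939.5 bp.

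**Figure D4:**
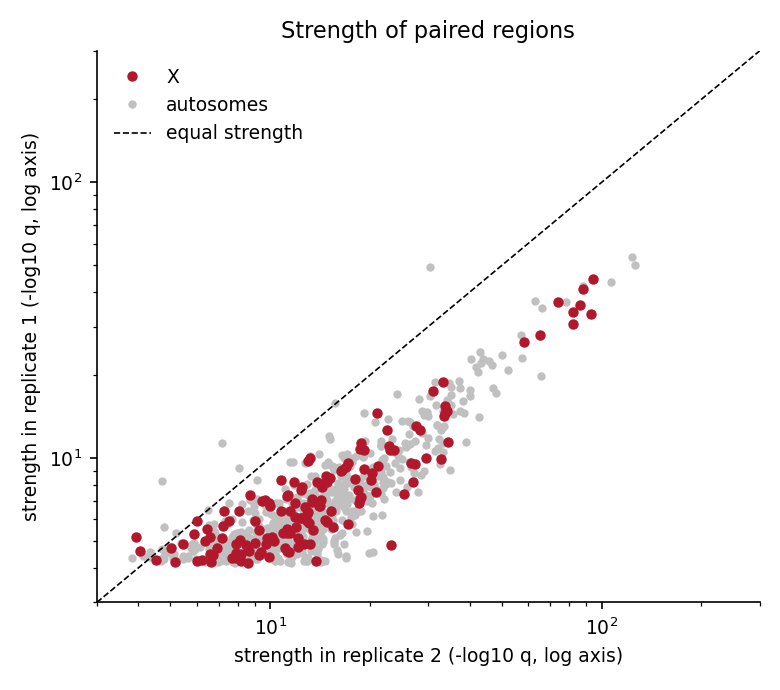
Strength (−log10 q) of paired distinct regions in replicate 1 (vertical) and replicate 2 (horizontal), both on log axes, for 144 pairs on X and 592 on the autosomes. The dashed line marks equal strength. On X, 142 pairs lie below it, and the 9 strongest X regions stand apart at the upper right.

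Overlapping entries within a list were common on X. In replicate 1, 49 of the 146 distinct X regions (33.6%, 25.97 to 41.8%) were made of 2 entries, against 28.8% over all chromosomes and 27.6% on the autosomes. In replicate 2 this held for 90 of 385 X regions (23.4%, 19.2 to 27.9%), against 21.0% over all chromosomes and 20.5% on the autosomes. The second entry, the one with the larger q value, was the narrower in 46 of the 49 regions of replicate 1 and in 89 of the 90 of replicate 2. The autosomal counts were 155 of 169 in replicate 1 and 364 of 370 in replicate 2. On X the median strength in replicate 1 was 10.7 for the stronger entries and 5.49 for the second. In replicate 2 it was 17.03 for the stronger X entries and 5.65 for the second.

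The 4 entries could be set side by side in 43 X regions with 2 entries in each list. Their median strengths were 11.05 for the stronger and 5.55 for the second entry of replicate 1, and 26.7 for the stronger and 8.10 for the second entry of replicate 2. The stronger replicate 1 entry lay between the 2 replicate 2 entries as a rule. It exceeded the second replicate 2 entry in 36 of the 43 regions, with a median difference of 3.79 over all 43. On the autosomes it did so in 133 of 149 regions, with a median difference of 3.44. At the strongest X region the strengths were 44.7 and 24.5 in replicate 1 and 94.2 and 35.4 in replicate 2. The sources used here do not say which analysis step each of the overlapping entries came from. A statement on which replicate was the stronger on X thus depends on which entry is read.

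Most X regions had no near neighbour. The median gap between neighbouring regions was 25.6 kb on X and 23.7 kb on the autosomes. Gaps of 5000 bp or less made up 85 of 398 on X (21.4%, 17.4 to 25.7%), against 24.2% over all chromosomes and 460 of 1857 on the autosomes (24.8%). The difference was -3.41 percentage points (-7.66 to 1.28), an interval that spans 0. The share was 9.66% on X in the shorter replicate 1 list, where the difference from the autosomes was -5.50 points (-10.4 to 0.959). Joining combined X regions across gaps of 5000 bp or less left 252 single regions, 47 groups of 2, 8 of 3, 6 of 4 and 1 of 5. Groups of 2 or more held 36.8% of X regions, against 41.0% of autosomal ones. Groups of 4 or more numbered 7 among the 399 X regions and 28 among the 1862 autosomal regions. The largest autosomal group had 16 regions.

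The group of 5 lay at chrX:6686717-6691438, within 4.72 kb, just after one of the widest gaps of X. From left to right, its strengths in the combined list were 4.99, 7.19, 12.3, 5.13 and 3.95. Only its second region was found in replicate 1, with a strength of 5.69 there. The strongest of the 5 was the region at 6688960 that had no replicate 1 entry. The 6 groups of 4 were at chrX:3455427-3465518, chrX:4799283-4806032, chrX:5811769-5820500, chrX:10590820-10600209, chrX:11462923-11467735 and chrX:12168514-12176574. Their strongest members had strengths of 18.4, 18.6, 12.5, 17.2, 13.9 and 10.8, in that order, and none of these ranked among the 20 strongest on X. In each of the 6, between 1 and 3 of the 4 regions were found in both replicate lists.

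Grouped X regions had strengths like those of single ones. The median was 6.35 for the 147 regions in groups of 2 or more (5.78 to 6.85) and 6.60 for the 252 single regions (5.78 to 7.34). On the autosomes it was 6.80 (6.51 to 7.09) in groups and 6.14 (5.87 to 6.48) for single regions. Whether X and the autosomes differed in this was not tested. Grouped regions had median widths of 505 bp on X (454 to 571 bp) and 467.5 bp on the autosomes (449 to 486 bp), with overlapping intervals. Single regions had medians of 466 bp on X (420 to 499 bp) and 383 bp on the autosomes (377 to 393 bp). The X median was thus the higher in both kinds, with separate intervals for single regions only.

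Along its span X was occupied fairly evenly, with the lowest count in the middle. When the span was divided into 5 equal parts from left to right, these held 76, 93, 66, 86 and 78 X regions. The middle part held 16.5% of X regions (13.03 to 20.6%), an interval that includes the share of an even spread. It held 27.3% of autosomal regions in their own spans, so that X minus autosomes was -10.7 points (-14.7 to -6.31). Single autosomes had between 23.8 and 30.6% there. The middle part of X was also the lowest of the 5 in both replicate lists, with 21 of 146 regions in replicate 1 and 63 of 385 in replicate 2. Neither list is independent of the combined one. Their intervals, 9.13 to 21.1% and 12.8 to 20.4%, include an even share as well. In bins of 5% of the span, the lowest counts were 10 regions between 50 and 55% and 11 between 90 and 95%. The widest gap of X, 342 kb between chrX:8995323-8995994 and chrX:9337635-9338111, fell in the first of these. Gene density was not available for this build and was not corrected for. Both outermost regions, chrX:293242-293621 and chrX:17628280-17628679, were found in replicate 2 only.

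**Figure D5:**
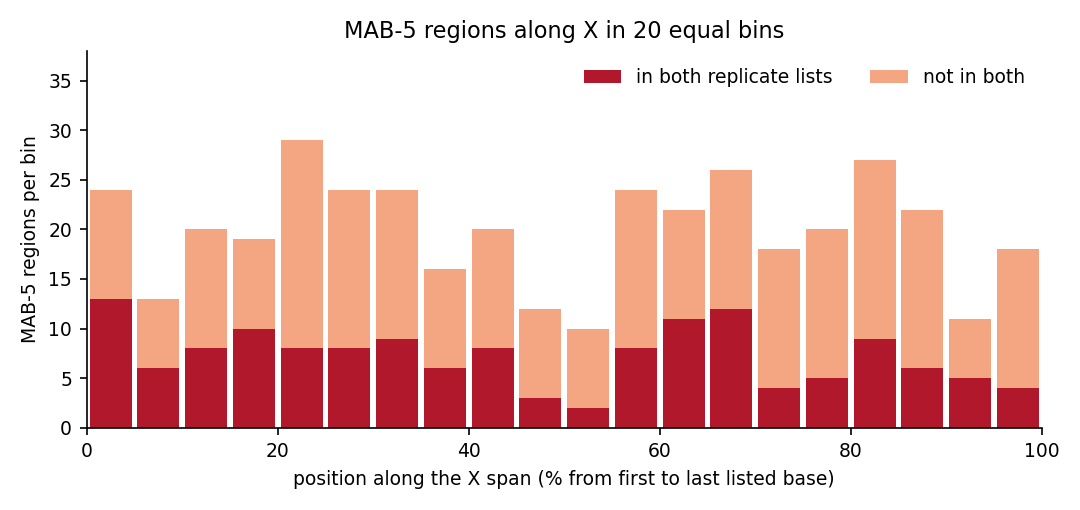
Number of MAB-5 regions in 20 equal bins along the X span, as a percentage of the distance from the first to the last listed base, divided into regions found in both replicate lists and others. Bins hold between 10 and 29 regions, with the lowest count between 50 and 55%.

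The part of X with most support was its left end. Of the 76 regions in the first of the 5 parts, 37 (48.7%) were in both replicate lists, whereas the other 4 parts of X had shares between 30.8 and 37.2%. On the autosomes the share was 34.98% in the first part, 25.8% in the middle one and 37.2% in the last. The first part also had the highest median strength, 7.21, against 5.84 to 6.41 in the others. It was singled out after its values were seen and carries no test. Widths did not follow this order. The median was 448.5 bp in the first part, the lowest of the 5, and 538.5 bp in the middle part, the highest.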

How the data were processed

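Each region had a q-value from the authors' deposited lists, 1 for each ChIP sample and a combined one. Coordinates are, per the file headers, those of WormBase WS180; the source column names PeakSeq. Not given in the sources used here were the aligner, the caller's settings, the q limit and how the lists were combined. Groups and replicates came from the sample titles.

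Overlapping entries of a replicate list were joined into distinct regions with the smallest q. An overlap of 1 bp or more made regions shared. A reciprocal overlap of 50% and centres within 200 bp were tried instead. Shares have exact Clopper-Pearson intervals, differences of shares Newcombe intervals, and medians order-statistic intervals, combined by square-and-add for differences. They cover counting error only. No p-value was computed. The code was tested on simulated lists.

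Named were the 20 strongest and 5 widest X regions, the largest groups (7, because of a tie), exceptions, ends and the widest gap. Members and rules were chosen with earlier results of these data known. The planned use of genes or motifs was dropped, since no WS180 annotation was at hand. Python 3.11.15, numpy 2.4.6, scipy 1.17.1 and matplotlib 3.10.9 were used.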

Additional observations from a re-analysis of the deposited data

How the results depend on the processing

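Of 57 alternative values for 13 results, 38 stayed within the interval of the reported value and 19 moved outside it. A difference whose interval excluded 0 changed direction in 0 of them. Only the differences in width and in paired strength had such an interval. Without replicate 1, the difference in strength changed sign to -0.0145 and that in the share found in both lists to -0.161. The reported intervals of both spanned 0. The width difference between X and the autosomes was positive under all 10 alternatives run, which reuse many of the same regions and are not independent. It was 42.5, 44.5 and 43 bp in the 3 weaker of 4 strength groups, with an interval that spans 0 in the third (-12.2 to 89.8 bp), and 115 bp in the strongest. It was 71 to 140 bp with 1 replicate list left out, 108.5 bp among regions in both lists and 130 bp between single replicate 1 entries. Strength groups and single entries were chosen after the data were seen. The X median width was 485 to 547.5 bp with 1 list left out, 605 bp among regions in both lists and 556.5 bp in the strongest 50% of the combined list. Taking regions in both lists, X held 19.5% of regions, its median strength was 12.9, and its difference in strength from the autosomes was -0.717. In the strongest 50% the median strength on X was 10.7. The share of X regions in both lists was 67.0% there, 6.35 points above that of the autosomes (-1.10 to 13.3). By 1 list alone the share of X regions found was 36.3 to 96.2%, the upper value being that without the requirement of a replicate 1 entry. The share of short X gaps was 9.66 to 20.6% with 1 list left out, 9.03% among regions in both lists and 14.1% in the strongest 50%, and 12.8% or 30.4% with limits of 2000 or 10000 bp. The settings that keep the strongest 50% or change the gap limit shift strength and gap shares by their construction. For the other shifts the cause was not tested. The paired difference between single entries was -3.31, over 59 pairs. No paired analysis was possible because the lists hold no values of the input samples that share replicate numbers with the ChIP samples. Depth is unknown, and its part in the shares found in replicate 1 was not tested.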
